A study of Homo sapiens with 4 samples.

Results

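The subunits of the 5 oxidative phosphorylation complexes were followed in a map of H4K20me1, the single methyl mark on lysine 20 of histone H4, in a leukemia cell line. Members were chosen by gene name: peaks of the table whose gene symbol has the pattern of a subunit (NDUFA, NDUFB, NDUFC, NDUFS or NDUFV with a number; SDHA to SDHD; CYC1 and symbols beginning with UQCR; symbols beginning with COX4, COX5, COX6, COX7, COX8 or ATP5). The NDUFAF assembly factors, distal intergenic peaks and NDUF symbols that only begin with such a name were left out. This gave 64 of 25514 peaks, at 48 gene symbols: 23 peaks at 18 genes for complex I, 3 at 2 genes for complex II, 10 at 8 genes for complex III, 14 at 7 genes for complex IV and 14 at 13 genes for complex V. NDUFA4 (RefSeq symbol COXFA4) was placed with complex IV, to which the protein belongs. The rule used no measured value, though the members and lists were chosen with earlier results of these data known. The symbols also took in COX7A2L, a factor that joins complexes III and IV, ATP5S (DMAC2L in RefSeq), and the read-through transcript ATP5MF-PTCD1.

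The cells were Kasumi-1, an established acute myeloid leukemia line with the t(8;21) translocation. The knockout cells had SETD8 (KMT5A), the enzyme that writes H4K20me1, removed by CRISPR/Cas9, and the control cells carried a non-targeting guide and are given as wild type. Each group had 2 CUT&Tag libraries, made from 100000 cells each, in which an antibody directs a transposase to the marked chromatin. The labels do not say whether a group's libraries came from separate guides or cultures, or whether the knockout cells were a clone or a pool. The table holds 1 value per group for each peak, with no column per library, so no spread between libraries could be computed. It does not say whether a value rests on 1 or on both libraries of a group. Nor do its columns name the groups: they are called here the first-listed and the second-listed group. The comparison's name puts the treated group before the control, but no column header says that the first-listed values are those of the knockout.

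Oxidative phosphorylation is the chain of complexes in the inner mitochondrial membrane that passes electrons from NADH (complex I) and succinate (complex II) through complex III and cytochrome c to oxygen at complex IV. The proton gradient this builds drives ATP synthesis by complex V. Most subunits are encoded in the nucleus and imported, while a smaller number, among them the catalytic core of complex IV, are encoded by mitochondrial DNA, which carries no histones. No peak lay on the mitochondrial chromosome. H4K20me1 is a mark of gene bodies and promoters that peaks in level around mitosis, and leukemia stem cells are known for their reliance on this chain.

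Promoter sequences are printed for 6 members whose peak covered most of the 300-base window (250 bases before to 50 after the RefSeq start, GRCh38.p14) and differed past the fold threshold used below, so that the marked sequence can be seen beside its value. The windows of NDUFV3 (chr21:42893059-42893358, plus strand) and ATP5PB (chr1:111449214-111449513, plus strand) belong to peaks that were higher in the first-listed group. Those of NDUFA4 (chr7:10940104-10940403, minus strand), COX8A (chr11:63974370-63974669, plus strand), ATP5MC1 (chr17:48892537-48892836, plus strand) and ATP5PD (chr17:75046920-75047219, minus strand) belong to peaks that were lower there. Each runs 5′ to 3′ on the gene's strand, and capitals mark every match to the searched motifs.
NDUFV3: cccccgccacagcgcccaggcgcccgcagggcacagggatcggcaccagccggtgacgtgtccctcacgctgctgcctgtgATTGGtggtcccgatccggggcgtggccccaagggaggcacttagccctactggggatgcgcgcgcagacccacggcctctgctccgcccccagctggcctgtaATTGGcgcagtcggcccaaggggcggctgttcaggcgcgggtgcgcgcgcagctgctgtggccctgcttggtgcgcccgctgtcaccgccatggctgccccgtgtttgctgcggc
ATP5PB: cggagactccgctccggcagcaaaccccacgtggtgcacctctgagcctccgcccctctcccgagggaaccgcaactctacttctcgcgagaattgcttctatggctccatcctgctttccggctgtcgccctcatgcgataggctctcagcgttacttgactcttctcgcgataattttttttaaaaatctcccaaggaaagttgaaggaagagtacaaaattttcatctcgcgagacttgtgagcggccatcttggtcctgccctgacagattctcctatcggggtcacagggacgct
NDUFA4: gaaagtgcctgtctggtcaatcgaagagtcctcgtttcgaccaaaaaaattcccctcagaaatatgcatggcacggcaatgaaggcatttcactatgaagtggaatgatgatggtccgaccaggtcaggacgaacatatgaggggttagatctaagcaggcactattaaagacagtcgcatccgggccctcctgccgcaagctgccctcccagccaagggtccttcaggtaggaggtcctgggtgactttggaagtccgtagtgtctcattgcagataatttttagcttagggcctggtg
COX8A: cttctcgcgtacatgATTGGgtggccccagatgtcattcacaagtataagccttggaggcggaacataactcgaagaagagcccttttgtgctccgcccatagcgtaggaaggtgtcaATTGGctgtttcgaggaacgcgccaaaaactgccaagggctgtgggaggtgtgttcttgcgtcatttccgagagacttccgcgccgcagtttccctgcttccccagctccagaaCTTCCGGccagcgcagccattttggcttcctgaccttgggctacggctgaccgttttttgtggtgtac
ATP5MC1: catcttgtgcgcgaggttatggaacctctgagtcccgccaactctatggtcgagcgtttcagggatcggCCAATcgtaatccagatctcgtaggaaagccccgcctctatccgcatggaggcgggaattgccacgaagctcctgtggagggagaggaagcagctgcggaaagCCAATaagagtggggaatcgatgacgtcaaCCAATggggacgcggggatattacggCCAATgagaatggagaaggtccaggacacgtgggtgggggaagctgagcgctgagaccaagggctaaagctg
ATP5PD: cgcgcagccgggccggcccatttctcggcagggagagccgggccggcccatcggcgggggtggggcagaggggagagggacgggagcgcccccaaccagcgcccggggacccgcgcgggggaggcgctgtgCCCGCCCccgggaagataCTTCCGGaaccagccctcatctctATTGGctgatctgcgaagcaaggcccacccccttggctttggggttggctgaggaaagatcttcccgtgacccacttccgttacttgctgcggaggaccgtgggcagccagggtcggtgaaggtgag
The motifs searched, on both strands, were the NRF1 palindrome, ETS/GABP (CCGGAAG), YY1 (AAGATGGCG), SP1 (GGGCGGG), the CCAAT box (CCAAT) and the TATA box (TATAAA), of which none contains another. NDUFA4 and ATP5PB held none of them. ATP5MC1 held 4 CCAAT boxes, the nearest at -22 from the start. COX8A and ATP5PD each held an ETS/GABP match, at -18 and -101.

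Among the 30 windows, of 26 genes, that overlapped a subunit peak, ETS/GABP was found in 5 (16.7%), against 12.8% of 22199 protein-coding windows and 10.3% of all 35116 windows. YY1 letters were found in 3 (10%), against 2.41% and 1.75%, and NRF1 letters in 1 (3.33%), against 1.5% and 1.24%. SP1 letters were less frequent, in 8 windows (26.7%), against 42.3% and 33.1%. CCAAT stood in 11 windows (36.7%), against 34.7% and 34.6%, and TATAAA in 2 (6.67%), against 9.47% and 11.5%. In the 37 windows of 32 subunit genes without a peak under their own name, ETS/GABP was found in 35.1%, YY1 in 13.5% and NRF1 in 8.11%. The median GC content was 57.2% in windows at subunit peaks, against 61.7% in subunit windows with no peak of that name and 62.3% in protein-coding windows. These shares describe letters in the windows, with no test. NDUFC1 and ATP5MC2 have more than 1 window each. Overlapping windows of NDUFC1 count the same SP1 letters again, and others of that gene have a low GC content (45.7% and 42.7%).

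H4K20me1 peaks were listed at 45 of a fixed list of 84 nuclear subunit genes, 53.6% (exact Clopper-Pearson 95% interval 42.4 to 64.5%), against 38.8% of 20056 protein-coding genes. The share differed by complex. Of 9 complex III genes, 8 had a peak (88.9%, interval 51.8 to 99.7%), and UQCRQ, a small ubiquinone-binding subunit, was the one without. Complex V had 11 of 17 (64.7%, 38.3 to 85.8%), complex I had 18 of 37 (48.6%, 31.9 to 65.6%), and complex II had 2 of 4, SDHA and SDHB. Complex IV had 6 of 17 (35.3%, 14.2 to 61.7%), near the share of all protein-coding genes. Its list counts isoforms of the same subunit as separate genes. Of these COX4I2, COX6A2, COX6B2, COX7A1 and COX8C had no peak, while COX7B2 had. The part of such isoforms in the share was not tested. The intervals of complexes III and IV overlap. Subunit genes were shorter, with a median length of 9.1 kb against 24.1 kb for protein-coding genes, and the part of gene length in the share was not tested.

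**Figure D1:**
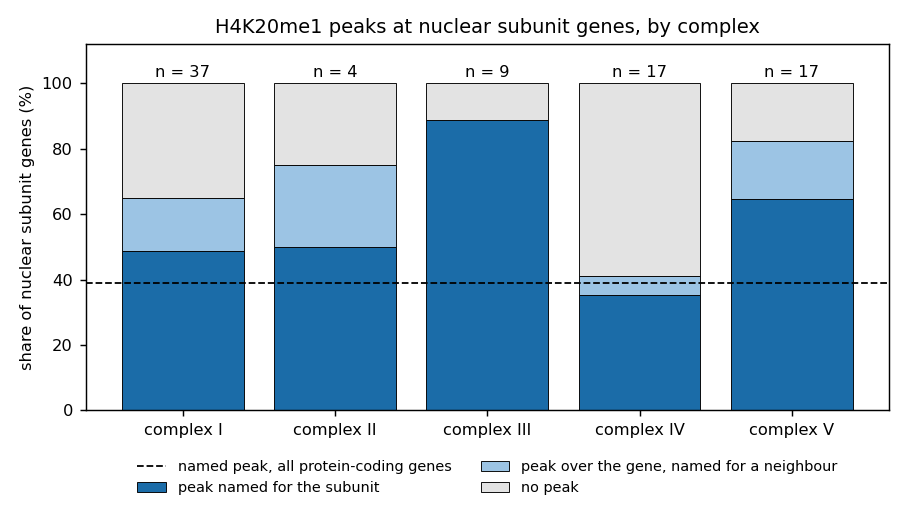
Share (%) of nuclear subunit genes of the fixed list in each complex with a peak of their own name (dark), with only a peak over the gene named for a neighbour (light) or with no peak (grey). The dashed line is the 38.8% of all protein-coding genes with a peak of their own name, and complex III stands highest at 88.9%.

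A peak is named for the nearest start, and 11 further subunits had a peak over the gene that was named for a neighbour. They were NDUFA2, NDUFA5, NDUFB2, NDUFB3, NDUFB7, NDUFC2, SDHD, COX4I1, ATP5F1B, ATP5F1C and ATP5PF. Of the 45 genes with a peak of their own name, 1, NDUFV1, had no peak over the gene itself. In all, 55 of 84 genes (65.5%) had a peak over the gene, against 41.1% of protein-coding genes. COX4I1, an early-assembling nuclear subunit of complex IV, shares its start region with EMC8. The peak there held 252.5 scaled reads (first-listed) against 164.3 (second-listed), a log2 difference of 0.62 (interval 0.33 to 0.91). It therefore stood on the opposite side of 0 from most complex IV members described below. ATP5F1B, the catalytic beta subunit of complex V, held 230.7 scaled reads (first-listed) against 210.8 (second-listed), a difference of 0.12 (-0.14 to 0.41). ATP5F1C, the gamma subunit of the rotating stalk, held 294.1 (first-listed) against 313.0 (second-listed), a difference of -0.08 (-0.32 to 0.14). Over these 12 peaks at 11 genes, 7 were above 0 and 5 below, against 58.2% of all peaks above 0. At the fold threshold of 0.5, 3 were higher, against 13.9% of all peaks and 15% of gene peaks (those not distal intergenic), and 0 lower, against 8.71% and 7.03%. The other 28 subunits (33.3%) had no peak, 13 of them in complex I and 10 in complex IV.

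Subunit peaks were mostly at promoters: 49 of 64 lay within 3 kb of a start, 43 of them (67.2% of the 64) within 1 kb, against 34.3% of the 19703 peaks that are not distal intergenic. A further 12 lay in introns, and 1 each in an exon, a 3′ UTR and a downstream region. Of 54 peaks whose gene is in the RefSeq promoter table, 22 covered the gene's own start. Of all 64 peaks, 11 covered a neighbour's start. Among the 54, 10 did so, and 8 of these covered both starts. They were NDUFA1 with RNF113A, NDUFA7 with RPS28, NDUFB1 with CPSF2 and NDUFC1 with NAA15. The others were UQCR10 with ZMAT5, NDUFA4 with LOC107986767, ATP5PB with WDR77 and ATP5PD with KCTD2. Reads at such a shared promoter cannot be assigned to 1 of the genes. The NDUFB5 peak covered the start of MRPL47, but NDUFB5 is not in the promoter table, so its own start was not checked. That peak overlaps 1 end of the RefSeq gene, and its deposited distance to the NDUFB5 start is 0. In 3 cases the peak lay inside another gene's intron, as for NDUFA11 in FUT5, UQCRFS1 in VSTM2B-DT and COX7B2 in GABRA4.

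The level of the mark is given as scaled reads, the deposited log2 value turned back to a linear scale, which is close to whole reads in each column. The median subunit peak held 99.0 scaled reads (first-listed) against 90.8 (second-listed), while the median of all peaks was 72.0 (first-listed) against 69.1 (second-listed). Of the 64, 42 (65.6%) were at or above the median signal of all peaks, against 50.2% of all peaks but 66.6% of all promoter peaks, which most members are. Over the mean of both groups, the median was 99.0 scaled reads at the 49 promoter members and 97.0 at all promoter peaks. Per kilobase the difference from other gene peaks was small: subunit peaks had medians of 80.8 (first-listed) against 76.7 (second-listed), and all peaks that are not distal intergenic had 79.8 (first-listed) against 74.8 (second-listed). Widths ran from 387 to 3946 bases with a median of 1189. CYC1, the cytochrome c1 of complex III that passes electrons to cytochrome c, had the most reads per peak, 548.7 scaled reads (first-listed) against 439.6 (second-listed). SDHA, the flavoprotein that oxidises succinate, followed with 357.1 (first-listed) against 330.8 (second-listed), and NDUFA7, a peripheral-arm accessory subunit of complex I, with 313.0 (first-listed) against 229.1 (second-listed). SDHA has near-identical pseudogene copies, and how reads matching several places were placed is not given in the sources used here, so its level is uncertain. Per kilobase the densest peak was in intron 2 of NDUFS6, at 260.1 scaled reads (first-listed) against 191.7 (second-listed).

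**Figure D2:**
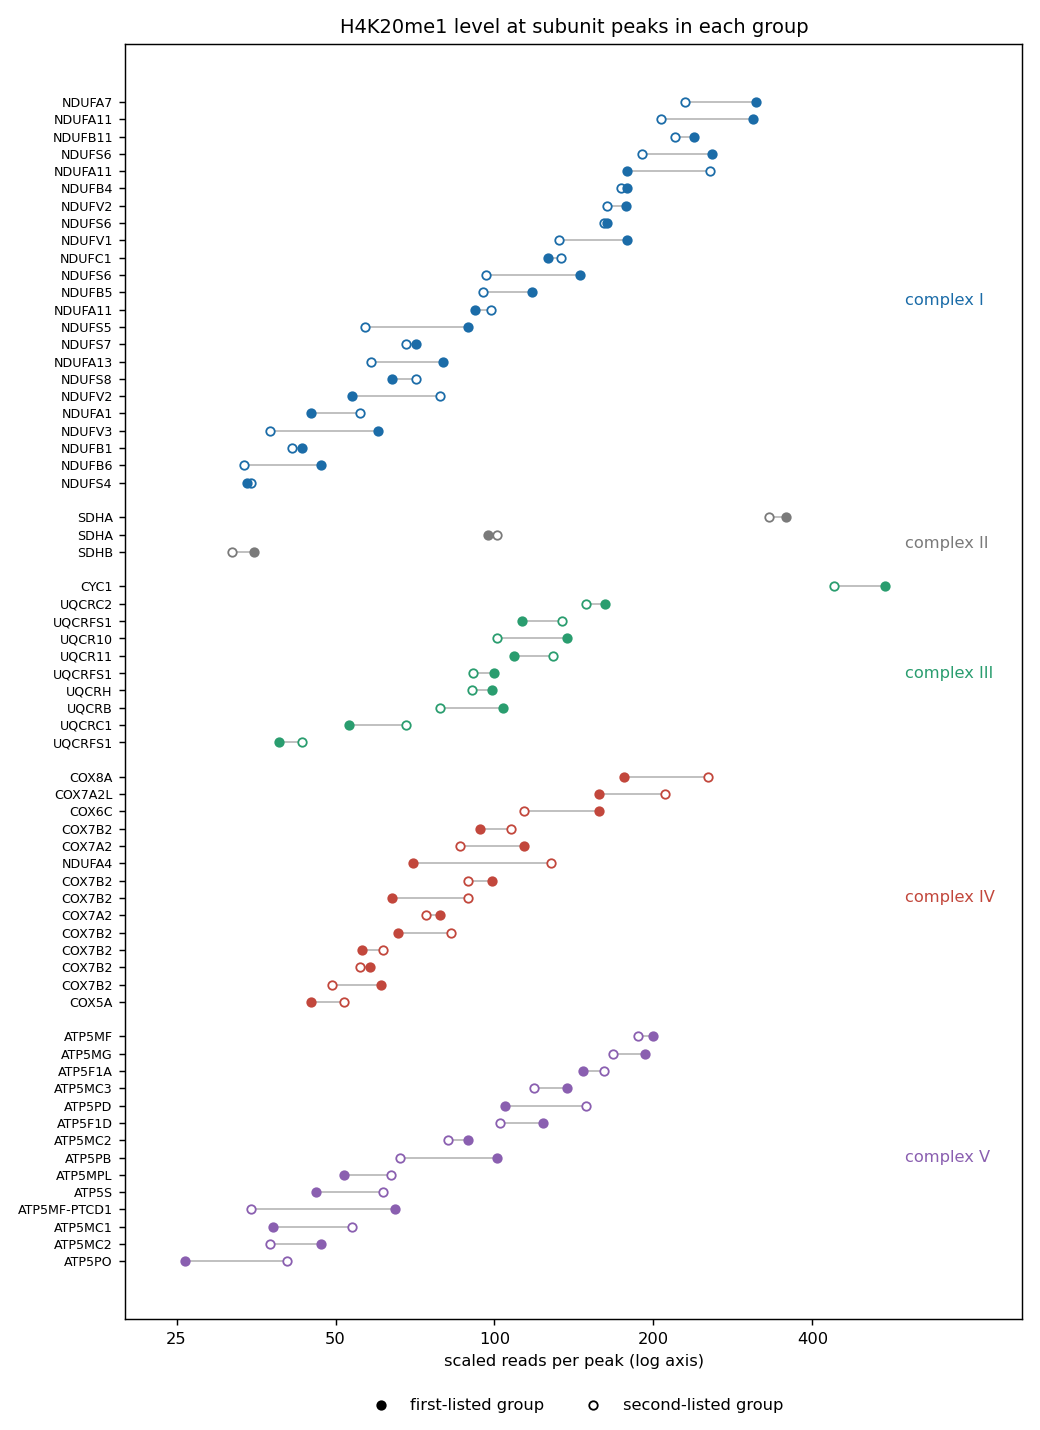
Scaled reads (log axis) at each of the 64 subunit peaks, grouped by complex and ordered by mean, with filled points for the first-listed group and open points for the second-listed group. CYC1 stands highest, at 548.7 (first-listed) against 439.6 scaled reads (second-listed), and the pair of points for NDUFA4, 70.0 (first-listed) against 128.0 (second-listed), is among the widest apart.

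Between the groups the scaled reads of the subunit peaks differed little as a set and split in both directions. Scaling could remove a change of the mark shared by all peaks, so only differences relative to other peaks can be read. The log2 difference, first-listed minus second-listed, was above 0 at 38 peaks (59.4%), against 58.2% of all peaks and 60.9% of those that are not distal intergenic, the gene peaks. It was below 0 at 26 peaks, against 40.9% of all peaks and 38.1% of gene peaks. Over genes, 28 stood above 0 and 20 below, with a median of 0.075. Over all 9021 genes with a peak that is not distal intergenic the same median was 0.084, with 5517 genes above 0 and 3439 below, and over all 25514 peaks the median was 0.06. Scaling to equal reads in all peaks lowers every log2 difference by 0.114, takes the median of all peaks to -0.054 and that of the subunit genes to -0.039, and puts 23 genes above 0 and 25 below. Differences are read here against these medians. Single peaks ran from -0.87 to 0.91 with an SD of 0.377 over the 64 peaks, against 0.437 over all peaks. At the threshold of 0.5 on the log2 scale, 6 peaks (9.38%) were higher, against 13.9% of all peaks and 15% of gene peaks, and 7 (10.9%) were lower, against 8.71% and 7.03%. With equal reads 3 peaks (4.69%) were higher, against 8.49% of all peaks and 9.21% of gene peaks, and 10 (15.6%) were lower, against 13.2% and 11.2%. None passed 1, against 2.46% of all peaks and 2.13% of gene peaks.

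By the authors' deposited table, 0 subunit peaks had an adjusted p below 0.05, as did 0% of all peaks. The lowest adjusted p of a member in that table was 0.963, and 2 members had an unadjusted p under 0.05, against 5.06% of all peaks and 5.2% of gene peaks. Intervals given with a log2 difference are exact Clopper-Pearson 95% intervals for the ratio of the 2 read numbers and cover counting error only. They lay above 0 at 12 peaks, against 17.1% of all peaks and 20.1% of gene peaks, and below 0 at 7, against 8.11% and 7.55%. Low read numbers were mostly even, and how fragment ends were counted is not given in the sources used here. Intervals computed from 0.5 of the reads lay above 0 at 6 of the 64 peaks and below 0 at 3. By the same rule, 2335 of all 25514 peaks lay above 0 and 809 below. Among the 19703 gene peaks, 2198 lay above 0 and 590 below.

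**Figure D3:**
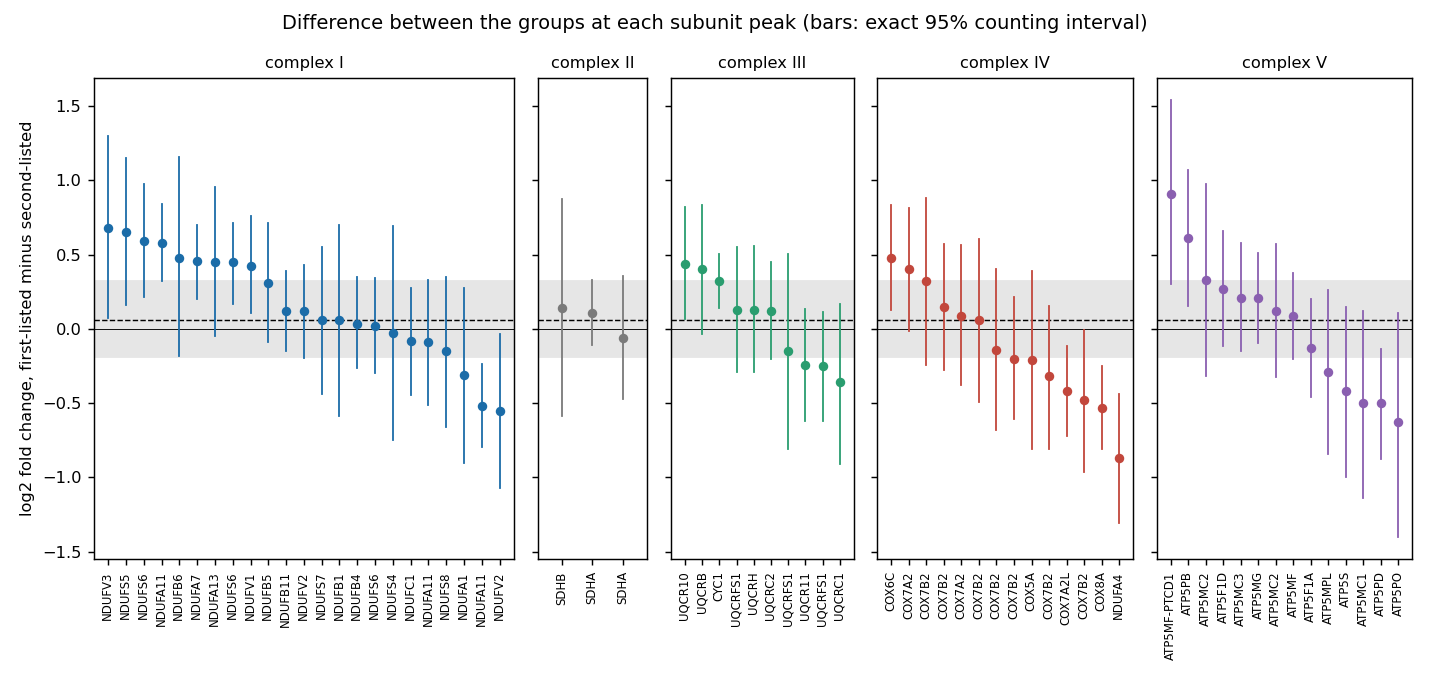
Log2 difference (first-listed minus second-listed group) at each subunit peak by complex, with exact 95% counting intervals as bars. The grey band spans the middle quartiles of all peaks and the dashed line is their median of 0.06; ATP5MF-PTCD1 (0.91) and NDUFA4 (-0.87) lie farthest out.

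Complex I, which takes electrons from NADH, had 12 of 18 genes above 0 and 6 below, with a median of 0.09, against 0.084 over all genes with such peaks, and -0.024 when scaled to equal reads. Its 23 peaks together gave a log2 ratio of summed reads of 0.187 (0.113 to 0.261), an interval that holds the 0.136 of all gene peaks and the 0.114 of all peaks. Genes of the peripheral arm, where NADH is oxidised, had a median of 0.207 with 5 of 8 above 0. Genes of the membrane arm, which pumps protons, had a median of 0.09 with 7 of 10 above 0, and of -0.024 when scaled to equal reads. NDUFV3, a small subunit of the NADH-binding module, had 60.1 scaled reads (first-listed) against 37.5 (second-listed), a difference of 0.68 (0.07 to 1.30). Its neighbour in that module NDUFV2, an iron-sulfur protein, had 53.8 (first-listed) against 78.8 (second-listed) at chr18:9117003-9117584, a difference of -0.55 (-1.07 to -0.03). That peak is annotated as promoter in the deposited table but lies inside the RefSeq gene and does not cover its start. A second NDUFV2 peak, in an exon, stood at 0.12. The peak named for NDUFV1, which binds NADH and FMN, lies just beyond the gene and held 178.5 scaled reads (first-listed) against 132.5 (second-listed), a difference of 0.42 (0.10 to 0.76).

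NDUFS5, an accessory subunit of the membrane arm, had 89.3 scaled reads (first-listed) against 56.9 (second-listed), a difference of 0.65 (0.16 to 1.15). NDUFS6, a zinc-binding accessory subunit, had 145.0 (first-listed) against 96.3 (second-listed) at a peak in its last intron, a difference of 0.59 (0.22 to 0.98), while its 2 other intronic peaks stood at 0.45 and 0.02. The peak at 0.02 goes below 0 when scaled to equal reads. NDUFA11, a membrane-arm subunit, did not keep a direction: its peak at chr19:5896769-5898291 held 308.7 scaled reads (first-listed) against 206.5 (second-listed), a difference of 0.58 (0.32 to 0.84), and the one at chr19:5903908-5904895 held 178.5 (first-listed) against 256.0 (second-listed), a difference of -0.52 (-0.80 to -0.24). The peak at 5903908 covers the start of VMAC and not that of NDUFA11. The remaining NDUFA11 peak, inside FUT5, stood at -0.09. NDUFA7 had the highest signal of the complex and a difference of 0.46 (0.20 to 0.70). The other peaks of complex I lay between -0.31 (NDUFA1, on the X chromosome) and 0.48 (NDUFB6).

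Complex II, the succinate dehydrogenase that belongs to both the citric acid cycle and the chain, had 3 peaks at 2 genes, all close to 0. SDHA had 357.1 scaled reads (first-listed) against 330.8 (second-listed), a difference of 0.11 (-0.11 to 0.33), and its second peak had 97.0 (first-listed) against 101.1 (second-listed), a difference of -0.06 (-0.47 to 0.35). SDHB, the iron-sulfur subunit, had 35.0 (first-listed) against 31.8 (second-listed), a difference of 0.14 (-0.59 to 0.87). Summed reads of the complex gave 0.078 (-0.107 to 0.262). The median over genes was 0.082, and -0.032 when scaled to equal reads, and no peak passed the fold threshold.

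Complex III, which passes electrons from ubiquinol to cytochrome c, had 5 genes above 0 and 3 below, for a median of 0.125, and 0.011 when scaled to equal reads. Its summed reads gave 0.145 (0.038 to 0.252), near the 0.136 of all gene peaks. No complex III peak passed 0.5 in either direction. UQCR10, a small subunit beside the Rieske protein, was highest with 137.2 scaled reads (first-listed) against 101.1 (second-listed), a difference of 0.44 (0.06 to 0.82). UQCRB, which binds ubiquinone, had 104.0 (first-listed) against 78.8 (second-listed), a difference of 0.40 (-0.03 to 0.84). CYC1 had 548.7 (first-listed) against 439.6 (second-listed), a difference of 0.32 (0.14 to 0.50), and its counting interval was the narrowest of the complex. UQCRC1, a core protein facing the matrix, was lowest with 53.1 (first-listed) against 68.1 (second-listed), a difference of -0.36 (-0.91 to 0.17), while the other core protein, UQCRC2, had 162.0 (first-listed) against 149.1 (second-listed), a difference of 0.12 (-0.21 to 0.45). UQCRFS1, the Rieske iron-sulfur protein, had 3 peaks, at 0.13, -0.25 and -0.15.

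Complex IV, cytochrome c oxidase, had 2 of 7 genes above 0 and 5 below, with a median of -0.21, 0.27 below the median of all peaks. Its summed reads gave -0.163 (-0.271 to -0.055), against 0.136 for all gene peaks and 0.138 for the members of the other 4 complexes, whose median was 0.12. The sign of the median held when scaled to equal reads (-0.324), without COX7B2 (-0.315), without NDUFA4 (-0.149) and without COX7A2L (-0.149). The summed ratio without NDUFA4 was -0.11 (-0.222 to 0.002). These checks cover only symbols taken by the rule. All of them leave out the COX4I1 peak (0.62), named for EMC8, and no median that counts it was computed. NDUFA4, once counted as a complex I subunit, had the lowest difference of all members. Its peak, which also covers the start of LOC107986767, held 70.0 scaled reads (first-listed) against 128.0 (second-listed). The difference was -0.87 (-1.31 to -0.44), with an unadjusted p of 0.0334 in the authors' deposited table. COX8A, the ubiquitous form of the smallest nuclear subunit, had the highest signal of the complex, with 176.1 (first-listed) against 254.2 (second-listed), a difference of -0.53 (-0.81 to -0.25). COX7A2L had 157.6 (first-listed) against 210.8 (second-listed), a difference of -0.42 (-0.72 to -0.11). COX5A, which lies on the matrix side, had 44.9 (first-listed) against 52.0 (second-listed), a difference of -0.21 (-0.81 to 0.39). Those 4 stood below 0, as did the mean over the peaks of COX7B2.

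Against them, COX6C, a membrane-spanning nuclear subunit, had 157.6 scaled reads (first-listed) against 113.8 (second-listed), a difference of 0.48 (0.12 to 0.83). COX7A2, the widely expressed form of subunit 7a, stood at 0.40 at a peak downstream of the gene and at 0.09 at its promoter. COX7B2, an isoform known mainly from testis, had 7 peaks, the most of any member. They spread over more than 100 kb from intron 3 into the neighbouring GABRA4 and ran from -0.48 to 0.32, with none past the fold threshold. With 1 value per group, from a number of libraries that is not stated, no spread between libraries can be set against these complex IV differences.

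Complex V, the ATP synthase, had 7 of 13 genes above 0 and 6 below, with a median of 0.09 (-0.024 when scaled to equal reads) and a log2 ratio of summed reads of 0.048 (-0.061 to 0.156), an interval that holds the 0.136 of all gene peaks. The peak named for the read-through gene ATP5MF-PTCD1, which lies over the end that it shares with ATP5MF in RefSeq and cannot be assigned to either, had the highest difference of all members, with 64.9 scaled reads (first-listed) against 34.5 (second-listed), a difference of 0.91 (0.30 to 1.54; unadjusted p 0.0316 in the authors' deposited table). The peak named for ATP5MF, the f subunit of the membrane part, had the highest signal of the complex, with 199.5 (first-listed) against 187.4 (second-listed), a difference of 0.09 (-0.21 to 0.38) at chr7:99457676-99459699, over the other end of the same gene, while the peak with the larger difference lay at chr7:99465696-99466171.

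The peripheral stalk, which holds the catalytic head still against the rotor, was divided. ATP5PB, the b subunit, had 101.1 scaled reads (first-listed) against 66.3 (second-listed), a difference of 0.61 (0.15 to 1.07). ATP5PD, the d subunit, had 104.7 (first-listed) against 149.1 (second-listed), a difference of -0.50 (-0.88 to -0.14). ATP5PO, the OSCP subunit that ties the stalk to the head, had 26.0 (first-listed) against 40.5 (second-listed), a difference of -0.63 (-1.40 to 0.10). That peak is annotated to intron 6 in the deposited table but lies outside the gene in RefSeq. The c subunit of the proton-driven ring is made as the same mature protein from 3 genes. Of these ATP5MC1 had 38.1 (first-listed) against 53.8 (second-listed), a difference of -0.50 (-1.14 to 0.12), while ATP5MC2 stood at 0.12 and 0.33 at its peaks and ATP5MC3 at 0.21. In the head, ATP5F1A, the alpha subunit, had 147.0 (first-listed) against 160.9 (second-listed), a difference of -0.13 (-0.46 to 0.20). In the central stalk, ATP5F1D, the delta subunit, had 123.6 (first-listed) against 102.5 (second-listed), a difference of 0.27 (-0.12 to 0.66). The remaining members, ATP5MG, ATP5MPL and ATP5S, lay between -0.42 and 0.21.

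Differences at members were set beside those of the peaks around them. The median log2 difference of the other peaks within 5 Mb ran from -0.25 to 0.35 over the 64 members, from 17 to 359 peaks each. Members lay above their surroundings at 29 peaks and below at 33, with a median difference of -0.013. Over the 64, the Pearson correlation of member and surroundings was 0.24. Of 52 members with surroundings above 0, 33 were above 0, and of 12 with surroundings below 0, 7 were below 0. ATP5MC1 and ATP5PD, both at -0.50 on chromosome 17, lay among peaks whose medians were -0.24 and -0.25. On chromosome 8, CYC1, COX6C and UQCRB (0.32, 0.48 and 0.40) lay among peaks with medians of 0.26, 0.35 and 0.23. COX7A2L (-0.42) had surroundings of -0.15. NDUFA4 did not follow its surroundings, at -0.87 where the 17 other peaks within 5 Mb had a median of 0.30, and COX8A (-0.53) stood among peaks with a median of 0.14.

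**Figure D4:**
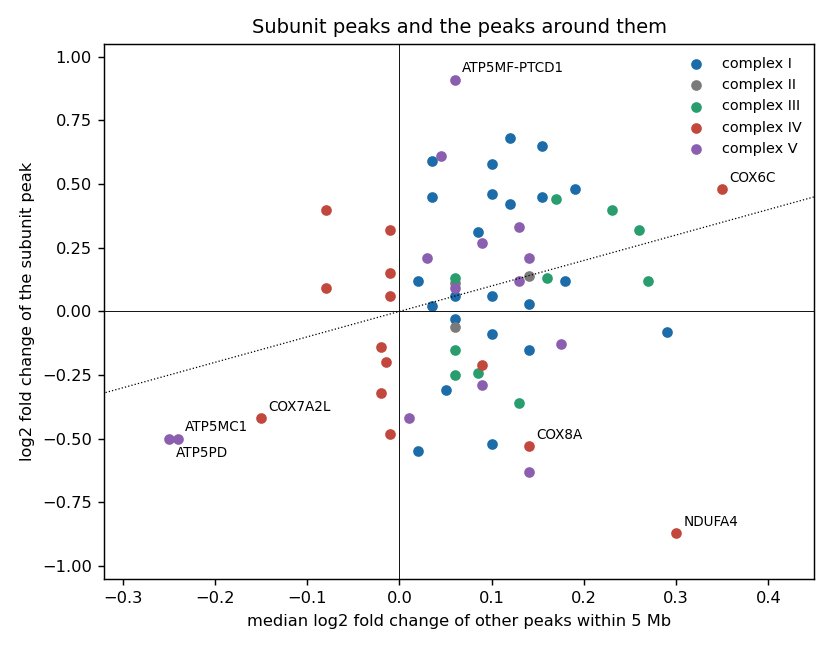
Log2 difference of each subunit peak (vertical axis) against the median log2 difference of the other peaks within 5 Mb (horizontal axis), coloured by complex, with a dotted line of equality. NDUFA4 (-0.87, surroundings 0.30) lies far below the line, and ATP5MC1 and ATP5PD share low surroundings of -0.24 and -0.25.

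Assembly factors, the proteins that build the complexes without being part of them, were counted for comparison from a fixed list. Of 56 genes, 24 had a peak (42.9%, interval 29.7 to 56.8%), against 38.8% of protein-coding genes. The 24 genes had 32 peaks in all. Of these genes 14 stood above 0 and 10 below, with a median of 0.12. At the threshold of 0.5, 5 of the 32 peaks were higher, against 13.9% of all peaks and 15% of gene peaks, and 2 lower, against 8.71% and 7.03%, shares close to the background. The authors' deposited table gave 0 of the 32 an adjusted p below 0.05. COA8, a protein that protects complex IV from oxidative damage, was highest, with 49.9 scaled reads (first-listed) against 26.9 (second-listed), a difference of 0.89 (0.20 to 1.62). LYRM7, which helps insert the Rieske protein into complex III, was lowest with 43.1 (first-listed) against 75.1 (second-listed), a difference of -0.80 (-1.37 to -0.25). CYCS, cytochrome c itself, had 106.9 (first-listed) against 101.1 (second-listed), a difference of 0.08 (-0.32 to 0.49). As a check of the cell type, 8 of 10 blood progenitor and leukemia genes had a peak (CD33 and MPO had none), against 3 of 12 genes of other tissues (ALB, SYT1 and RBFOX3). In all, 2791207 reads of the first-listed group and 2682916 of the second-listed group lay in peaks, a median of 72 per peak in each.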

How the data were processed

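H4K20me1 CUT&Tag was deposited as 1 table of 25514 peaks on hg38. The submitters' processing notes name cutadapt, Bowtie2 and DESeq, with no version; the peak caller and the rule for placing reads that match several places are both not given in the sources used here. The deposited log2 values are 1 level per group and a log2 fold change, and the deposited p-value columns hold unadjusted and adjusted p-values. The value columns are named only by number, and were read as follows: the fold column equals the first level minus the second within 0.01.

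Low values fall on log2 of whole reads plus a constant (0 and -0.057), so reads were recovered, exactly up to 143 and within 0.347% above. Among peaks of 2 to 7 reads, 75.5% (first-listed) and 86.9% (second-listed) had even numbers. Exact 95% intervals (scipy 1.17.1, Python 3.11.15) cover counting error only, and the code was tested on simulated data. A gene's value is the mean of its peaks. A median over genes has no test, and peaks of 1 gene are not replicates.

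The genes named are, per complex, the peaks of highest and lowest log2 difference and highest signal, plus every peak past 0.5 or with an unadjusted p under 0.05; others were named after their values were seen, for their role. The members and lists were chosen with earlier results of these data known. Gene starts and promoter windows come from RefSeq (GRCh38.p14); 45 of 48 symbols matched RefSeq, and 38 genes had a promoter window.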

Additional observations from a re-analysis of the deposited data

How the results depend on the processing

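Of the alternative values computed for medians, counts, shares and levels, 90 stayed close to the value reported. Close means within the counting error, within 1.5 times for a count, or within the exact interval for a share. Complex II changed sign among the 90. Some settings, such as leaving out the 2p, 9q and 17q segments for complex I, kept the same peaks and could not change the value. Another 15 moved further, and 3 medians both moved further and changed sign. Scaling to equal reads in all peaks lowered each median by 0.114, to -0.039 over all subunit genes, -0.024 for complex I, -0.024 for complex V and -0.032 for complex II, which all went below 0, to 0.011 for complex III and to -0.324 for complex IV. With no scaling the median over all genes was 0.018. Keeping peaks at or above the median signal gave 0.215 for complex I, and leaving out the 2p, 9q and 17q segments gave 0.21 for complex V. The 6 higher peaks became 0 at a threshold of 1, 1 by unadjusted p in the authors' deposited table, 12 by the counting interval and 3 with equal reads (against 10 lower), where NDUFA11, NDUFS6 and ATP5PB stood at 0.466, 0.476 and 0.496. The 7 lower peaks became 0 at a threshold of 1, 1 by unadjusted p and 4 when peaks under the median signal were left out. Intervals from 0.5 of the reads gave 3, against 809 of all 25514 peaks. Counting any peak over the gene took the share of subunit genes with a peak to 65.5%, and the median level was 79.4 scaled reads per kilobase, against 95.3 per peak over the mean of the groups. The alternatives of any peak over the gene, 0.5 of the reads, no COX7B2 and NDUFA4 in complex I were chosen after seeing the data. The cause of these shifts was not tested, other than the scaling's own shift of -0.114. No paired analysis was possible because the table holds 1 column per group, and for the same reason no library could be left out. A median of 72 reads per peak limits what a single peak can show.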

Other observations

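The rule left out 11 peaks that carry a subunit's name. Of these, 7 are distal intergenic, between 13.4 and 187.0 kb from the start, at COX7B2, ATP5MC1, NDUFS5 and UQCRFS1, with log2 differences from -0.35 to 0.45. The other 4 have symbols that only begin with a subunit name. NDUFB2-AS1, an antisense gene at the start of NDUFB2, had 83.3 scaled reads (first-listed) against 52.0 (second-listed), a log2 difference of 0.68 (0.17 to 1.20). NDUFC2-KCTD14, a read-through of a complex I subunit, had 157.6 (first-listed) against 118.6 (second-listed), a difference of 0.42 (0.07 to 0.77). NDUFV2-AS1 had 337.8 (first-listed) against 344.9 (second-listed), a difference of -0.03 (-0.25 to 0.19), more reads than either NDUFV2 peak. NDUFA4L2, a paralog of NDUFA4 known as a hypoxia-responsive gene, had 77.2 (first-listed) against 71.0 (second-listed), a difference of 0.11 (-0.37 to 0.59), while NDUFA4 itself stood at -0.87.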
